A study of Mus musculus with 31 samples.

Results

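The genes described are 4 bone morphogenetic protein (BMP) ligands (Bmp2, Bmp4, Bmp6 and Bmp7), 3 secreted proteins that bind BMPs (Grem1, Bmper and Chrdl1) and 3 inhibitor of DNA binding (Id) genes (Id1, Id2 and Id3). They were taken by symbol, with earlier results of these data known, and are 10 of the 23509 genes counted per mouse. All 10 were among the 15185 genes with enough counts to be tested. Kidney mRNA was sequenced from 31 mice harvested at 30 weeks of age. Of these, 12 were Pcy/CD1 mice injected subcutaneously with phosphate-buffered saline (PBS), and 14 were Pcy/CD1 mice injected subcutaneously with RGLS4326 at 25 mg per kg monthly from 5 weeks of age. The other 5 were untreated male wild-type CD1 mice. Pcy/CD1 is a slowly progressing mouse model of polycystic kidney disease on the CD1 background, and RGLS4326 is an oligonucleotide designed to inhibit the microRNA miR-17. The Pcy/CD1 mice were male, per the study's description. The study and the sample labels give weekly injections for PBS, though the protocol text reads as monthly, so the injection frequency of PBS is not settled, and if weekly it cannot be told apart from the drug. The wild-type mice were neither injected nor Pcy, so injection and genotype cannot be told apart in comparisons with them. In these comparisons, higher, lower, rose or fell with PBS names a difference between the groups, and is not a measured effect of saline.

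BMPs are secreted ligands of the TGF-beta superfamily that bind type I and type II serine/threonine kinase receptors, which phosphorylate the receptor Smads Smad1, Smad5 and Smad9. With Smad4, these Smads enter the nucleus and switch on genes of which the Id genes are the best known. Secreted antagonists such as gremlin and the chordin-like proteins hold the ligands away from their receptors. Id proteins lack a DNA-binding domain and block basic helix-loop-helix factors by pairing with their E-protein partners. In the kidney, Bmp7 is needed for nephron formation, and gremlin is known for its rise in fibrotic kidneys.

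Libraries held 14892524 to 27459962 counts on genes, with group medians of 19961466 in wild type, 20562148 with PBS and 19898000 with RGLS4326. Levels are given in CPM, which are counts scaled to the size and composition of each library, and differences between groups as log2 fold changes from edgeR's quasi-likelihood test over all 31 mice, with their standard error (SE), Benjamini-Hochberg adjustment over all genes tested and a threshold of 0.05. The kidney label was borne out by the level of the nephron marker Umod. Its mean was 4796 CPM in wild type, 4294 CPM with PBS and 4541 CPM with RGLS4326. No gene of 7 marker lists, of nephron and other cells, was at 0 in any mouse, which alone does not test the label. The library numbers restart within each group and were split there into 3 series. The labels do not describe these series, and their use as technical batches is an assumption. Of these series, the third holds wild-type mouse 5 alone for its group. RGLS4326-treated mouse 9 stood near wild type, with a summed level of 8 proximal tubule markers of 15130 CPM against 4856 to 9837 CPM with PBS and 16307 to 17596 CPM in wild type.

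Between PBS-treated and wild-type kidneys, 8 of the 10 genes differed, beside 74.3% of all genes tested, so the count was close to the share over all genes. Bmp2, Bmp6, Grem1 and Bmper were higher and Bmp7, Chrdl1, Id1 and Id2 were lower, beside 37.7% and 36.6% of all genes in these directions. Bmp4 and Id3 did not pass the test. With a log2 fold change over 0.5 as well, 6 of the 10 passed, beside 42.4% of all genes. The median size of the log2 fold change was 0.96 over the 10 genes and 0.42 over all genes tested. Grem1 was the single member whose PBS and wild-type values did not overlap, beside 42.2% of all genes.

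**Figure D1:**
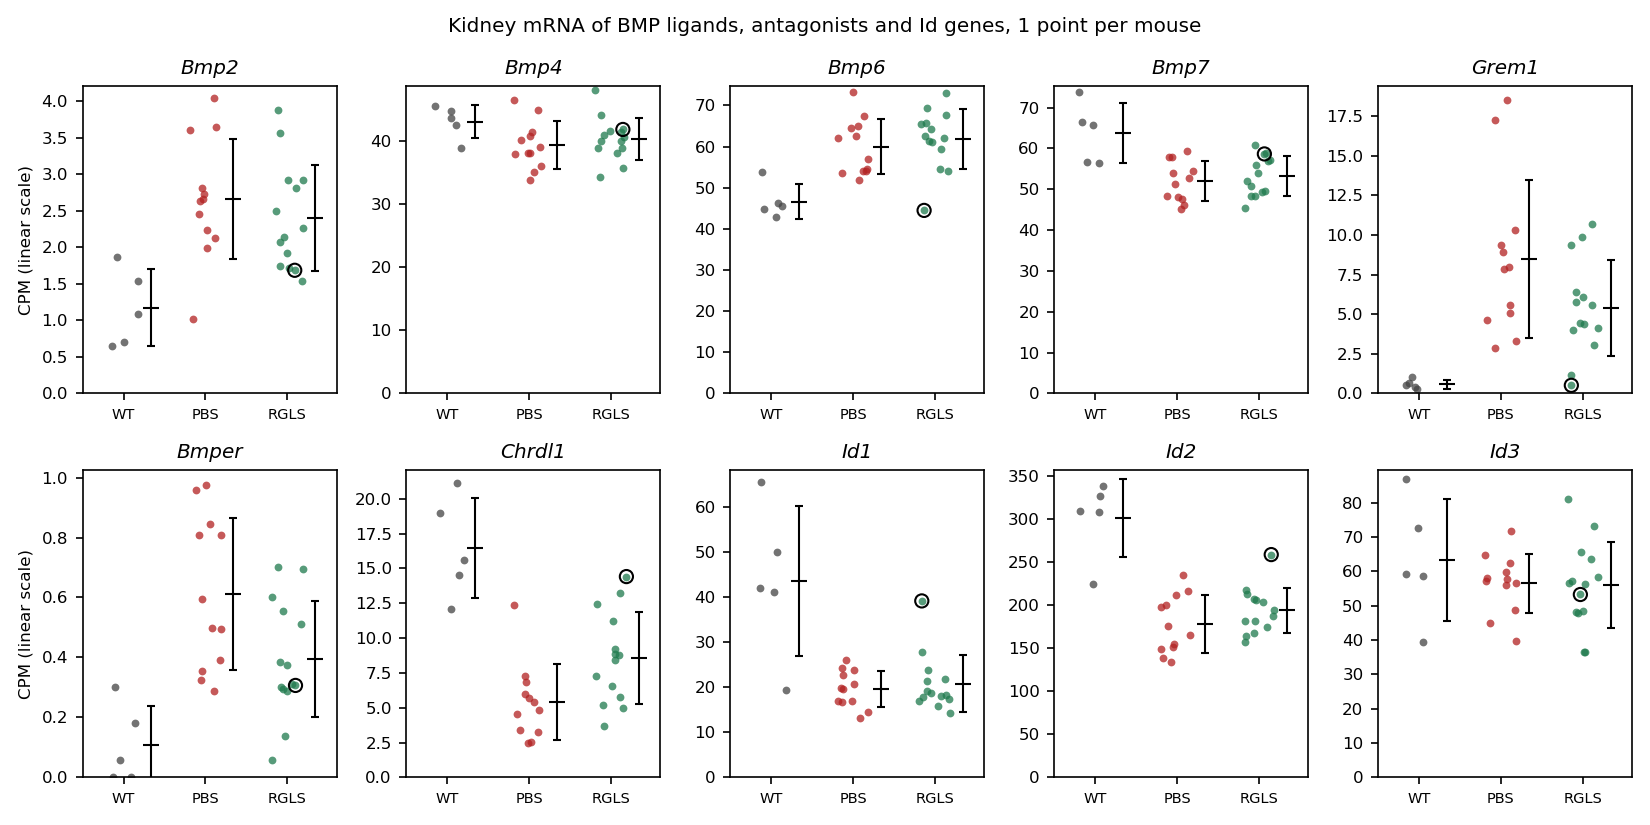
Level of each gene in CPM (linear axis from 0) in wild-type (WT, n = 5), PBS-treated (n = 12) and RGLS4326-treated (RGLS, n = 14) kidneys, with 1 point per mouse and the mean ± SD beside each group, cut at 0 for Bmper in wild type. RGLS4326-treated mouse 9 is ringed, and its Grem1 (0.511 CPM), Id1 (39.2 CPM) and Chrdl1 (14.4 CPM) lie among the wild-type values.

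Bmp2, a ligand of the same branch as Bmp4, lies on the plus strand of chromosome 2 (chr2:133552159-133562885, GRCm38). Wild-type mice 1 to 5 had 0.708, 1.54, 0.651, 1.09 and 1.87 CPM. The PBS-treated mice ran from 1.02 CPM over a median of 2.65 CPM to 4.04 CPM, and the RGLS4326-treated mice from 1.54 CPM over 2.21 CPM to 3.89 CPM. Of the 12 PBS-treated mice, 11 lay above the highest wild-type value. Bmp2 rose with PBS (log2 fold change 1.18, SE 0.27, adjusted p = 0.000297), from 1.17 ± 0.528 CPM (SD, n = 5) to 2.67 ± 0.822 CPM (SD, n = 12). Within the library series the difference was 1.30, 1.86 and 0.19, and the third series did not pass (adjusted p = 0.772).

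Bmp4 is expressed in the mesenchyme around the developing ureter and lies on the minus strand of chromosome 14 (chr14:46383520-46390669). Its level was among the steadiest of the 10 genes, at 45.5, 44.7, 42.5, 43.7 and 38.8 CPM in wild-type mice 1 to 5. PBS-treated kidneys spanned 33.8 to 46.5 CPM with a median of 38.5 CPM. The groups overlapped, and the log2 fold change of −0.13 (95% interval −0.26 to 0.00086) did not pass the test (adjusted p = 0.0675). Without wild-type mouse 5 it did (−0.17, adjusted p = 0.0367), and likewise without PBS-treated mouse 1 (adjusted p = 0.0292) or 12. In exons, 89 bases of Bmp4 are shared with Gm15217 on the opposite strand, and the strand setting of the counting is not given in the sources used here.

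Bmp6, best known for regulating hepcidin and iron, lies on chromosome 13 (chr13:38345107-38500302, plus strand). Its wild-type values were 42.8, 46.2, 45.5, 44.8 and 53.8 CPM. With PBS it ranged from 52.0 to 73.2 CPM around a median of 59.6 CPM, and 10 of 12 mice lay above all wild-type values. The rise was small, with a log2 fold change of 0.36 (SE 0.087, adjusted p = 0.000422). It was 0.36, 0.51 and 0.15 within the library series, and the third did not pass (adjusted p = 0.365). Bmp6 shares 224 exon bases with Txndc5 on the opposite strand.

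Bmp7 (chr2:172868012-172940321, minus strand) went the other way. Wild-type mice 1 to 5 stood at 73.8, 56.7, 65.6, 66.4 and 56.5 CPM, and the PBS-treated mice between 45.2 and 59.4 CPM with a median of 52.0 CPM. Of these, 9 of 12 lay below the lowest wild-type mouse and 0 above the highest. Bmp7 fell by 0.30 in log2 units (SE 0.072, adjusted p = 0.000452), and the fall did not pass within the second library series (−0.28, adjusted p = 0.0567) or the third (−0.096, adjusted p = 0.597). Per kilobase of exon, Bmp7 exceeded Bmp6 in 5 of 5 wild-type mice, with ratios of 1.02 to 1.67, and in 0 of 12 PBS-treated mice, with ratios of 0.700 to 0.966. This ratio, and the others of this kind given for gene pairs, was picked after the values were seen and carries no test.

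Among the secreted BMP-binding proteins, 2 rose and 1 fell. Grem1 encodes gremlin, which binds Bmp2, Bmp4 and Bmp7 (chr2:113746164-113758646, minus strand). It was close to absent in wild type, at 0.295, 0.416, 0.532, 0.666 and 1.02 CPM in mice 1 to 5. PBS-treated kidneys reached 2.84 to 18.5 CPM with a median of 7.93 CPM, so that the lowest of them was above the highest wild-type mouse. Grem1 was 14.4-fold higher with PBS (log2 fold change 3.85, SE 0.61, adjusted p = 1.84e-06), and the rise passed within each library series (4.49, 3.47 and 3.40, with adjusted p = 0.00403, 0.0125 and 0.0233).

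Bmper, an extracellular modulator related to the fly protein Crossveinless-2, lies on chromosome 9 (chr9:23223076-23485200, plus strand) and was near the limit of detection. The 5 wild-type libraries held 0, 0, 1, 5 and 3 counts, and the PBS-treated libraries 6 to 26 counts each. In CPM, PBS-treated kidneys ran from 0.287 over a median of 0.548 to 0.975, and 11 of 12 lay above the wild-type range. The log2 fold change of 2.46 (SE 0.53, adjusted p = 0.000136) rests on 9 wild-type counts in all, and its size moved from 2.15 to 3.25 when single mice were left out. Both wild-type libraries of the first library series were at 0 counts, so no fold is given there. It was 1.93 in the second series and 1.71 in the third, and the third did not pass (adjusted p = 0.277).

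Chrdl1 encodes chordin-like 1, also called ventroptin, an antagonist of Bmp4 among others (chrX:143285674-143394262, minus strand). Its values in wild-type mice 1 to 5 were 15.6, 19.0, 14.6, 12.1 and 21.1 CPM. PBS-treated kidneys had 2.50 to 12.4 CPM with a median of 5.11 CPM, and 11 of 12 lay below the lowest wild-type mouse. Chrdl1 was 3.06-fold lower (log2 fold change −1.61, SE 0.28, adjusted p = 7.12e-06), at −1.29, −1.49 and −2.23 within the 3 library series. The order of Grem1 and Chrdl1 differed between the groups. Per kilobase of exon, the ratio of Grem1 to Chrdl1 was 0.031 to 0.090 in wild type, with Chrdl1 higher in all 5 mice, and had a median of 2.54 with PBS, with Grem1 higher in 10 of 12 mice.

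Of the Id genes, which are direct targets of BMP-activated Smads, Id1 and Id2 were lower with PBS and Id3 did not pass, and their changes were not tested against each other. Id1 lies on chromosome 2 (chr2:152736251-152737410, plus strand) and stood in wild-type mice 1 to 5 at 65.6, 50.0, 41.1, 42.0 and 19.4 CPM. PBS-treated kidneys had 13.2 to 26.2 CPM with a median of 19.6 CPM, below wild-type mice 1 to 4 and around mouse 5. With PBS it was 2.22-fold lower (log2 fold change −1.15, SE 0.19, adjusted p = 4.93e-06). It was −1.62 and −1.0 in the first and second library series (adjusted p = 0.000458 and 0.0235), and 0.028 in the third (adjusted p = 0.948), where wild-type mouse 5 is the comparison.

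Id2 (chr12:25093799-25097140, minus strand) was the most abundant member per kilobase in every group. Wild-type mice 1 to 5 had 338, 327, 308, 309 and 224 CPM, and PBS-treated mice 134 to 235 CPM with a median of 170 CPM. In the PBS-treated group, 11 of 12 mice lay below wild-type mouse 5, itself the lowest of its group. Id2 fell by 0.76 in log2 units (SE 0.11, adjusted p = 9.61e-07), the smallest adjusted p of the 10 genes in this comparison, and by 0.85 without wild-type mouse 5. It was −0.76, −0.84 and −0.41 within the library series, and the third did not pass (adjusted p = 0.127).

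Id3 (chr4:136143497-136145755, plus strand) did not pass the test. It stood at 87.0, 72.6, 59.2, 58.7 and 39.4 CPM in wild type and at 39.9 to 71.8 CPM with PBS, around a median of 57.5 CPM, so that every PBS-treated value fell within the wild-type range. The log2 fold change was −0.17 (95% interval −0.48 to 0.15, adjusted p = 0.333), and it was −0.41, −0.038 and 0.44 within the 3 library series, of which the first passed (adjusted p = 0.0395). The ratio of Id1 to Id3 per kilobase was 0.760 to 1.16 in wild type and 0.418 to 0.677 with PBS. These ranges do not overlap, but how often those of other gene pairs stay apart was not counted.

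Wild-type mouse 5 had the lowest Bmp4, Bmp7, Id1, Id2 and Id3 and the highest Bmp2, Bmp6, Grem1 and Chrdl1 of its group. The 8 calls between PBS and wild type all held when it was left out. As it is the only wild-type mouse of the third library series, mouse and series cannot be told apart.

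**Figure D2:**
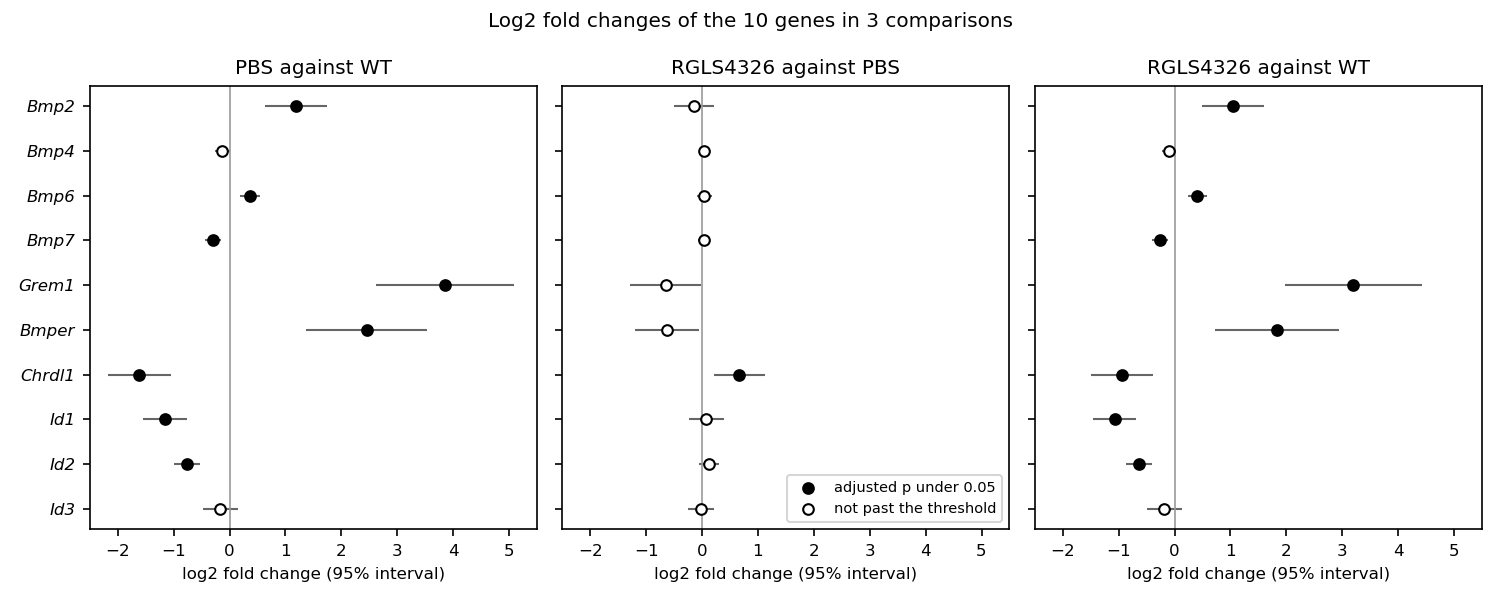
Log2 fold change of each gene with its 95% interval in PBS against wild type (WT), RGLS4326 against PBS and RGLS4326 against wild type, from 1 fit of 31 mice, with filled points at an adjusted p under 0.05. In the middle panel Chrdl1 (0.67) is the single filled point.

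Per kilobase of exon, the order of levels in wild type was Id2 (124 CPM per kilobase), Id1 (37.6), Id3 (35.4), Bmp4 (19.1), Bmp7 (15.9), Bmp6 (12), Chrdl1 (2.44), Bmp2 (0.330), Grem1 (0.141) and Bmper (0.022). The ranges over mice overlapped between Id1 and Id3, Bmp4 and Bmp7, and Bmp2 and Grem1, so these neighbours were not apart. With PBS, Id3 (31.5) came second, Id1 (16.9) stood between Bmp4 (17.5) and Bmp6 (15.4) with overlapping ranges, and Grem1 (2.04) was seventh, ahead of Chrdl1 (0.799) and Bmp2 (0.750), again with overlapping ranges. The order with RGLS4326 was the same as with PBS, with Grem1 at 1.30 and Chrdl1 at 1.27 CPM per kilobase. There, ranges of neighbours overlapped from Id3 down to Bmp7 and from Grem1 down to Bmp2, so these were not apart.

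The second comparison asked what RGLS4326 changed in Pcy/CD1 kidneys relative to PBS. Of the 10 genes, 1 passed the test, Chrdl1, which was higher with RGLS4326, and 0 were lower by edgeR's quasi-likelihood test, beside 9.15% and 6.66% of all genes in these directions (15.8% in all). DESeq2 gave the same single call. At an unadjusted p under 0.05 there were 3, with Grem1 and Bmper lower, beside 36.8% of all genes. The count over all genes was itself unsteady, at 2402 with all mice and 618 to 3999 when single mice were left out. It was 303 with the replicate block, though the replicate numbers did not pair the mice. It fell by over 1.5 times without PBS-treated mouse 2, 3, 5, 9 or 10 or RGLS4326-treated mouse 3, 6, 8, 9, 10 or 13, and rose by as much without PBS-treated mouse 4 or RGLS4326-treated mouse 2. The median size of the 10 log2 fold changes was 0.10, against 0.12 over all genes tested. No gene of the 15185 had PBS and RGLS4326 values that did not overlap (0.00%).

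Chrdl1 had 3.73 to 14.4 CPM with RGLS4326, around a median of 8.63 CPM, and 12 of 14 treated mice lay above the PBS median of 5.11 CPM. The mean was 8.59 ± 3.28 CPM (SD, n = 14) against 5.40 ± 2.72 CPM (SD, n = 12) with PBS, or 0.67 in log2 units (SE 0.22, adjusted p = 0.0412). The groups overlapped widely, with 3 treated mice above the highest PBS-treated mouse. This call was near the threshold. It was lost with no filter (adjusted p = 0.0511), with the 2 groups only (0.0596) and with the replicate block (0.107). The difference was 0.18, 1.05 and 0.81 within the library series (adjusted p = 1.0, 0.237 and 0.201) and 0.59 without RGLS4326-treated mouse 9 (adjusted p = 0.0723). Leaving out single mice gave 0.59 to 0.85 with adjusted p from 0.0070 to 0.0832, and the call was lost without PBS-treated mouse 2, 3, 5, 9 or 10 or RGLS4326-treated mouse 3, 6, 8, 9, 10 or 13.

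Grem1 ran from 0.511 over a median of 5.01 to 10.7 CPM with RGLS4326, and 2 treated mice lay below the lowest PBS-treated mouse. The log2 fold change was −0.65 (95% interval −1.28 to −0.011) with an adjusted p of 0.129, so a difference was not established. It was −0.15, −0.29 and −1.48 within the library series. Bmper ran from 0.057 over 0.343 to 0.700 CPM, on 1 to 15 counts per library, with a log2 fold change of −0.62 (95% interval −1.19 to −0.049, adjusted p = 0.108). The ratio of Grem1 to Chrdl1 per kilobase had a median of 1.19 with RGLS4326, and Grem1 was the higher of them in 8 of 14 mice.

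For the ligands and Id genes, intervals bound how large a treatment difference could be. Bmp4 (40.3 ± 3.34 CPM, SD, n = 14), Bmp6 (61.8 ± 7.22 CPM) and Bmp7 (53.3 ± 4.79 CPM) differed from PBS by 0.036, 0.043 and 0.037 on the log2 scale, with 95% intervals from −0.062 to 0.13, −0.084 to 0.17 and −0.072 to 0.15. Bmp2 differed by −0.14, with the wider interval of −0.51 to 0.22. Id1 had 14.3 to 39.2 CPM with RGLS4326 around a median of 18.5 CPM, and its difference of 0.079 (95% interval −0.23 to 0.39) became −0.022 without mouse 9, which held the highest value. Id2 ran from 157 over 191 to 259 CPM and differed by 0.13 (95% interval −0.053 to 0.31, adjusted p = 0.294). Id3, at 36.5 to 81.2 CPM, differed by −0.015 (95% interval −0.25 to 0.22).

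RGLS4326-treated kidneys differed from wild type in the same 8 genes and directions as PBS-treated kidneys did, beside 64.9% of all genes tested (32.5% higher and 32.4% lower). These comparisons share the wild-type mice, and the treatment comparison shares the PBS-treated mice. Against wild type, Grem1 stood at a log2 fold change of 3.85 with PBS and 3.20 with RGLS4326, Bmper at 2.46 and 1.83, and Bmp2 at 1.18 and 1.04. For the genes below wild type, Chrdl1 stood at −1.61 and −0.94, Id1 at −1.15 and −1.07, and Id2 at −0.76 and −0.64. Chrdl1 excepted, the step between the 2 values of a gene did not pass the test. Within the second library series alone, which holds RGLS4326-treated mouse 9, 0 of the 10 genes passed against wild type, beside 392 of all genes. Over all genes, 7195 passed in the first series. In the third, with 1 wild-type mouse, Id1 (0.18) and Bmp7 (0.0044) did not keep their direction.

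Several values of RGLS4326-treated mouse 9 were close to wild type. It had the lowest Grem1 and Bmp6 (44.5 CPM) and the highest Chrdl1, Id1 and Id2 of the treated group. Its Bmp7 to Bmp6 ratio per kilobase of 1.28, its Id1 to Id3 ratio of 1.14 and its Grem1 to Chrdl1 ratio of 0.058 each lay in the wild-type range, and for the ratios of Bmp7 to Bmp6 and of Id1 to Id3 it was the one treated mouse in which the first gene was higher.

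Markers of other cell types moved between the groups as well. In bulk kidney, fewer cells of a type and less RNA per cell cannot be told apart. Against wild type, 8 of 8 proximal tubule markers were lower with PBS, 6 of 8 fibroblast and 8 of 8 leukocyte markers were higher, and so were 5 of 6 collecting duct markers, with 1 lower, beside 37.7% of all genes higher and 36.6% lower. The summed fibroblast markers were 136 to 207 CPM in wild type, 515 to 1099 CPM with PBS and 217 to 1126 CPM with RGLS4326, the lowest of these being mouse 9. Leukocyte markers summed to 161 to 176, 330 to 542 and 157 to 652 CPM, and collecting duct markers to 530 to 884, 1384 to 2882 and 822 to 2049 CPM. Endothelial markers, of which 3 of 8 were lower and 1 higher with PBS, summed to 337 to 481, 240 to 465 and 219 to 526 CPM. Podocyte markers (2 of 6 higher with PBS) summed to 190 to 337, 217 to 386 and 216 to 334 CPM, and distal tubule markers (3 of 6 lower and 1 higher) to 6439 to 8119, 4964 to 7106 and 5853 to 7932 CPM. With RGLS4326 against PBS, 2 of 8 proximal tubule markers and 1 of 6 distal tubule markers were higher, 4 of 6 collecting duct markers were lower and 0 markers of the other lists passed by edgeR's test, beside 9.15% of all genes higher and 6.66% lower. The part of these shifts in the values of the 10 genes was not tested.

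Of 54 other genes of the pathway, taken from a list of ligands, antagonists, proteases, receptors, Smads, targets and partners, 44 could be tested. Between PBS and wild type, 22 were higher and 10 lower, beside 37.7% and 36.6% of all genes (74.3% in all), at a median log2 fold change of 0.295 against 0.010 over all genes. Of the 11 antagonists and modulators in it, 8 were higher and 0 lower beside these shares, a list without Grem1, Bmper and the lower Chrdl1, and with no test of its own. With RGLS4326 against PBS, 1 of the 44 was higher and 4 were lower, beside 9.15% and 6.66% of all genes. The genes named per role are the 3 with the smallest p in the first comparison and those that passed in the second.

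Among the ligands, Bmp3, which opposes other BMPs, rose from 1.19 ± 0.368 CPM (SD, n = 5) to 7.49 ± 3.46 CPM (SD, n = 12), a log2 fold change of 2.65 (adjusted p = 1.38e-06). Gdf6 rose by 2.49 from 0.143 CPM, and Bmp5 fell by 1.07 from 0.811 CPM, both at low levels. Of the antagonists, Fstl3, a follistatin-like binder of activin, rose by 0.98, and Nbl1, a relative of gremlin, by 2.64, from 8.49 ± 4.10 to 53.0 ± 13.4 CPM. Fstl1 rose by 1.51 from 39.4 ± 6.26 to 112 ± 18.6 CPM. Of the 2 proteases tested, Bmp1, which cleaves chordin and procollagens, rose by 1.90, and Tll1 fell by 1.03 (adjusted p = 0.0323). The Tll1 call was lost in each library series (adjusted p = 0.318, 0.155 and 0.532) and without wild-type mouse 1, 3 or 4 (adjusted p up to 0.0690).

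Of 11 receptors and co-receptors, 5 were higher and 4 lower, beside 37.7% and 36.6% of all genes. The co-receptors Rgma (log2 fold change 1.07) and Rgmb (0.67) and the endothelial type I receptor Acvrl1 (0.80) rose. Bmpr2, the type II receptor for BMPs, was lower, at 53.4 ± 3.06 CPM in wild type and 38.4 ± 5.08 CPM with PBS (−0.47). Of 6 Smads, 2 were higher and 3 lower, beside the same shares. Smad9 fell by 2.05, from 2.18 ± 0.218 to 0.526 ± 0.167 CPM, while Smad1 rose by 0.40 and the inhibitory Smad6 by 0.42. Of 9 targets and partners, 4 were higher and 1 lower, again beside these shares. Id4 fell by 0.97 from 20.3 ± 3.76 to 10.4 ± 1.38 CPM, as Id1 and Id2 did. The E-protein gene Tcf3 rose by 0.50 and the ubiquitin ligase gene Smurf1 by 0.43. Outside the naming rule, Atoh8 (0.80, adjusted p = 0.000303) and Msx1 (0.73, adjusted p = 0.00158) of the same list also rose. In single library series, with fewer mice, genes named by the rule kept their directions where fitted, but some calls did not hold. Bmp5 was not fitted in the first series. Smad1 (adjusted p = 0.0589 and 0.0701), Smad6 (0.0529 and 0.0829) and Bmp5 (0.139 and 0.171) did not pass in the second or the third, Gdf6 (0.0890) and Id4 (0.103) in the second, Tcf3 (0.0714) in the third and Bmpr2 (0.0552) in the first.

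The treatment calls in this list were small. Bmpr2 was higher with RGLS4326, at 36.4 to 50.0 CPM around a median of 43.3 CPM against 29.1 to 49.2 CPM around 38.5 CPM with PBS, or 0.17 in log2 units (SE 0.059, adjusted p = 0.0468). The lower genes were Fstl1 (−0.36, adjusted p = 0.0456), the type I receptor gene Bmpr1b (−0.35, adjusted p = 0.0275), Rgmb (−0.19, adjusted p = 0.0458) and Tcf3 (−0.22, adjusted p = 0.0253). All of these groups overlapped. None of the 5 passed within a single library series, and each was lost when some single mice were left out. Of 31 such fits, Fstl1 was lost in 18, Rgmb in 17 and Bmpr2 in 17, but Bmpr1b in 3 and Tcf3 in 2. With the replicate block, whose numbers did not pair the mice, Fstl1 (adjusted p = 0.0899), Rgmb (0.116), Tcf3 (0.0704) and Bmpr2 (0.0797) lost the call. Fstl1, Rgmb and Bmpr2 also lost it with no filter and with the 2 groups only (adjusted p = 0.0536 to 0.0696), and Rgmb and Bmpr2 with the library series as a covariate (adjusted p = 0.0503 and 0.0521).

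**Figure D3:**
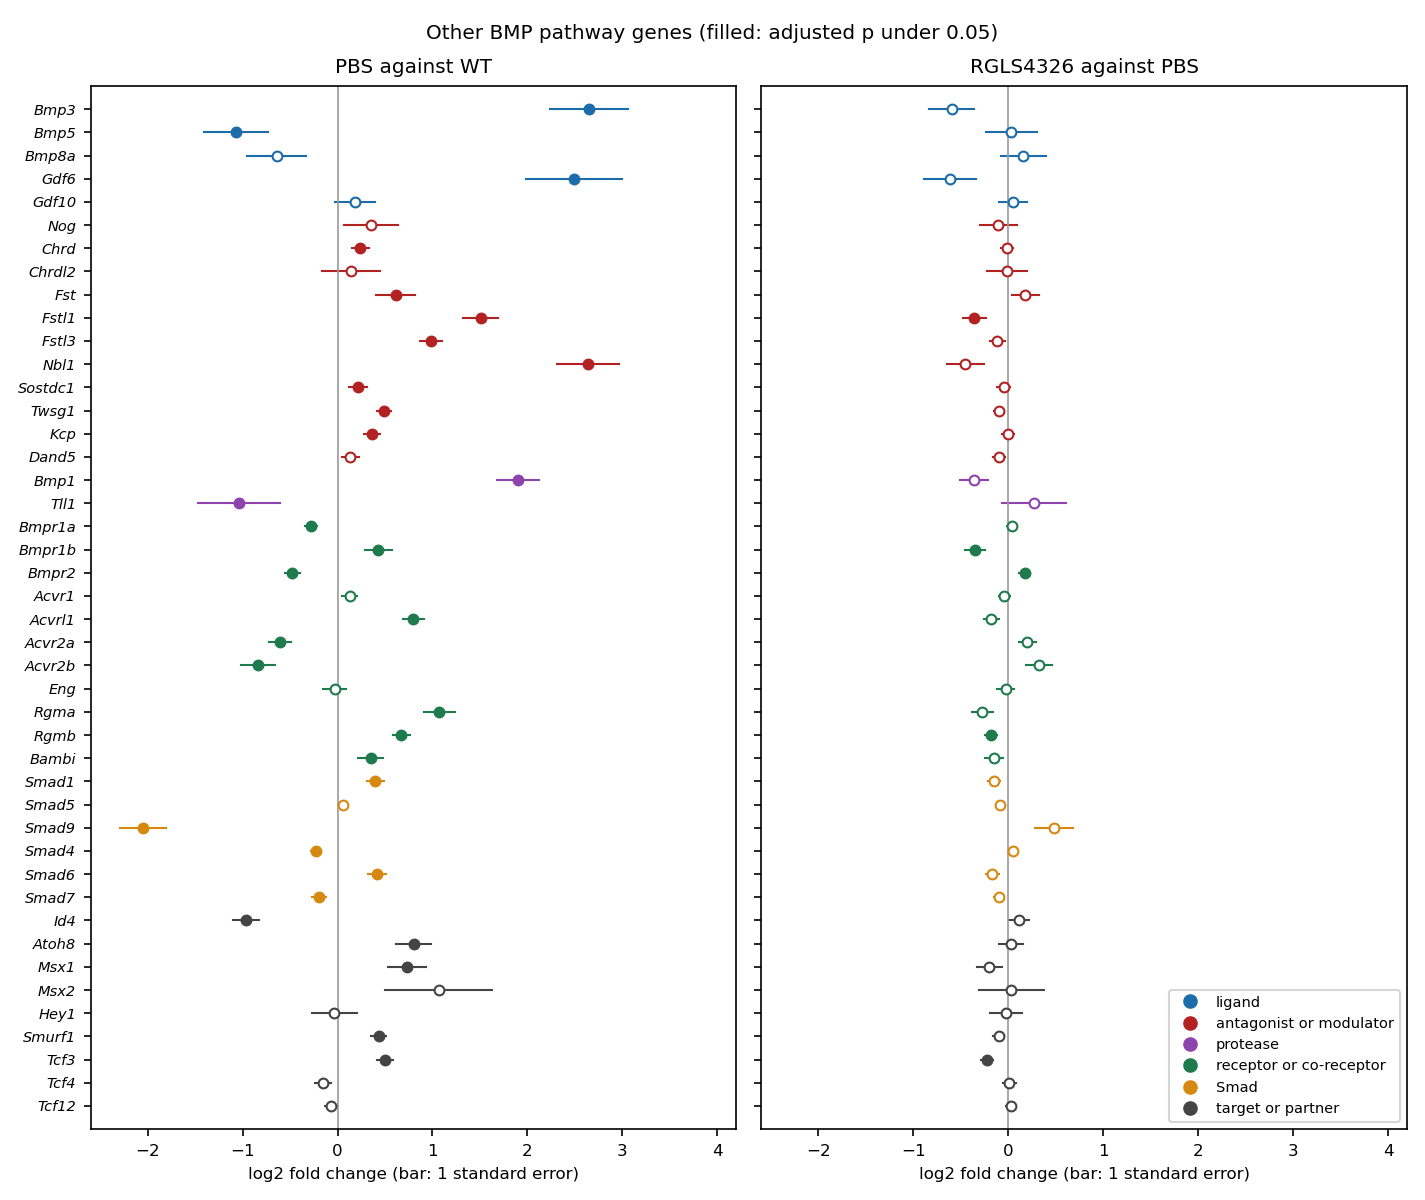
Log2 fold changes of the 44 tested genes of the wider pathway list, with bars of 1 standard error, in PBS against wild type (WT) and RGLS4326 against PBS, colored by role and filled at an adjusted p under 0.05. In the first panel 8 of 11 antagonists and modulators are filled to the right of 0, and in the second 5 of the 44 points are filled, with Bmpr2 to the right.

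As RGLS4326 is directed at miR-17, the 3′ untranslated regions (UTRs) were searched for the letters that pair with its seed. The mature mouse miRNA, from RefSeq (GRCm38.p6, chr14:115043684-115043706, plus strand), is shown with its seed, bases 2 to 8, in capitals.
mmu-miR-17-5p: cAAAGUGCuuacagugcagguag
The matching letters in an mRNA are GCACTTT. They occurred in the longest annotated 3′UTR of 0 of the 10 genes, of 10 of the 54 other pathway genes (18.5%) and of 2470 of 21011 genes in all (11.8%). Of the 5 pathway genes that passed with treatment, Bmpr2, which was higher, and Rgmb, which was lower, held the letters. Their sites are printed with the seed match in capitals, followed for Rgmb by the A that makes it an 8-base match, at chr1:59870675-59870704 and chr1:59874351-59874380 (plus strand) and at chr17:15806840-15806869 (minus strand).
Bmpr2 first site: ttttaagttttGCACTTTtgtttagtcttg
Bmpr2 second site: ggtatcacactGCACTTTtactctgttagt
Rgmb site: cctcttagaaaGCACTTTAttttttatata
A match of letters is a description and does not show that the miRNA acts there. Grem1, with 3436 bases of 3′UTR searched, and Chrdl1, with 2648 bases, held none.

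Promoter windows of 250 bases before to 50 bases after 1 RefSeq start of a gene were held for Bmp4, Bmp6, Grem1, Bmper, Id2 and Id3. They were searched on both strands for GGCGCC, a GC-rich sequence that BMP-activated Smads are known to bind and that reads the same on either strand. Of these 6 genes, Id2 and Grem1 held it, as did Id4, and 13.4% of all genes with a window did. The sites are shown with the motif in capitals because Id2 and Id4 fell and Grem1 rose in PBS-treated kidneys. They lie in the windows chr12:25096043-25096342 (Id2, minus strand), chr13:48260866-48261165 (Id4, plus strand) and chr2:113758599-113758898 (Grem1, minus strand) of GRCm38.p6, at −231, −148 and −78 from that RefSeq start. The Id2 window lies inside the GENCODE extent of Id2 given above, whose outermost start is further upstream. The same holds for the Bmp6 and Id3 windows, which held no match.
Id2 promoter: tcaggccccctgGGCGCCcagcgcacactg
Id4 promoter: ctcgggttgcccGGCGCCccgccctcgcca
Grem1 promoter: cgcggcggcgacGGCGCCtgaccaatggag
Of the pathway list, Id4 alone was searched. Among the genes searched, the motif was thus found for genes of both directions. Bmp6 and Bmper, both higher in PBS-treated kidneys, and Bmp4 and Id3, which did not pass, held none.

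Among mice given the same treatment, the 10 genes varied together in few pairs. Of 90 pairs tested on log2(CPM + 1), 45 in each Pcy/CD1 group, 5 passed an adjusted p under 0.05 by Pearson's r and 0 passed by both r and Spearman's rho, in two-sided permutation tests with 100000 resamples. With PBS (n = 12), Chrdl1 and Id1 had r = −0.81 (permutation p = 0.00153, adjusted p = 0.0344) and rho = −0.70 (permutation p = 0.0147, adjusted p = 0.203). Bmp2 and Id3 had r = 0.79 (permutation p = 0.00242, adjusted p = 0.0436) and rho = 0.65 (permutation p = 0.0249, adjusted p = 0.203). Without the 2 mice farthest from the median of the first gene, r was −0.62 and 0.72. In the RGLS4326-treated group these pairs had r = 0.17 and 0.43, and neither passed.

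In the RGLS4326-treated group (n = 14), Grem1 ran against Id1, with r = −0.87 (permutation p = 0.00015, adjusted p = 0.0135) and rho = −0.70 (permutation p = 0.00745, adjusted p = 0.134). Grem1 also ran against Id2, with r = −0.77 (permutation p = 0.00104, adjusted p = 0.0344) and rho = −0.61 (permutation p = 0.0237, adjusted p = 0.203). Bmp2 ran against Chrdl1, with r = −0.78 (permutation p = 0.00129, adjusted p = 0.0344) and rho = −0.80 (permutation p = 0.0013, adjusted p = 0.0648). Leaving out mice 9 and 14 brought the Grem1 pairs to r = −0.58 and −0.48, so these relations rested in part on those mice. The Bmp2 and Chrdl1 pair went to −0.63 without its 2 farthest mice. In the PBS-treated group, Grem1 and Id1 had r = 0.57, of the opposite sign. There, Grem1 and Id2 had r = −0.50 and Bmp2 and Chrdl1 r = −0.088, and none of these passed. Each library series holds 4 or 5 mice of a group, too few for an r of its own. After subtraction of the series means, r was −0.84 and 0.82 for the PBS pairs and −0.87, −0.74 and −0.81 for the RGLS4326 pairs, in the order given.

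**Figure D4:**
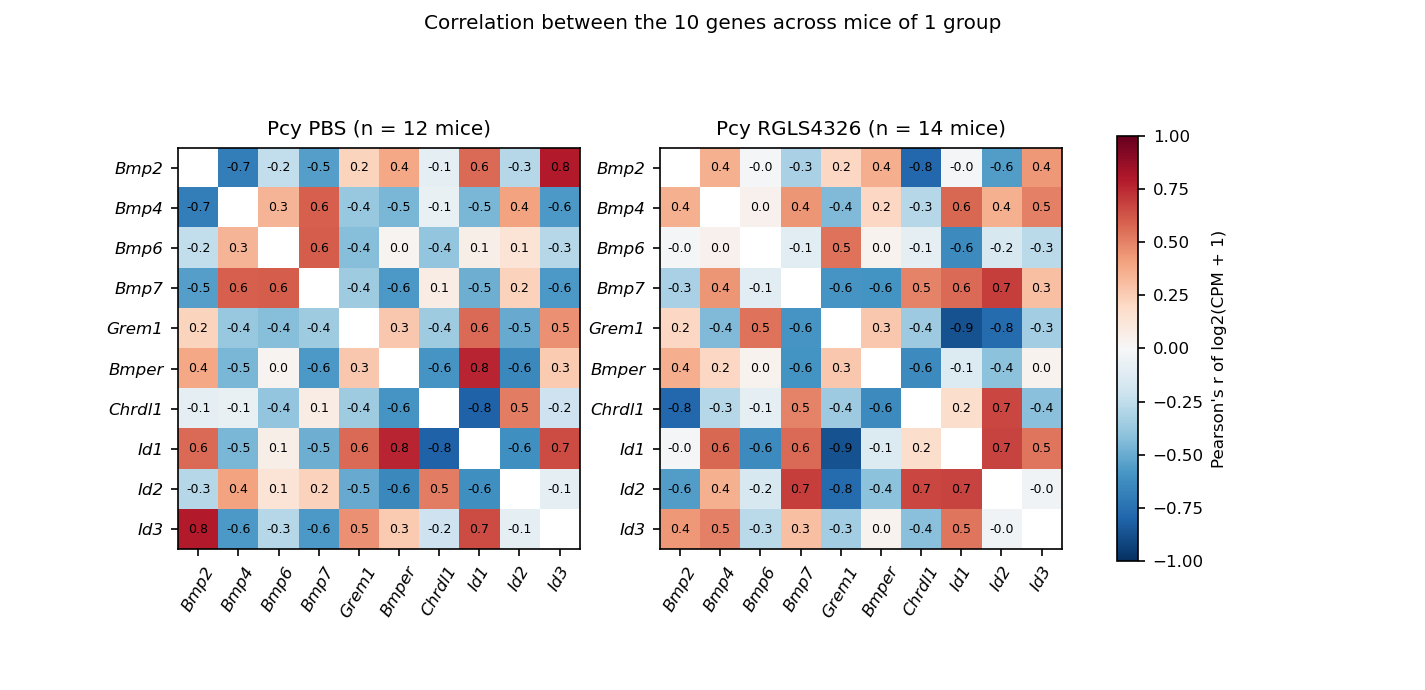
Pearson's r of log2(CPM + 1) between each pair of the 10 genes across PBS-treated (n = 12, left) and RGLS4326-treated (n = 14, right) mice, from −1 in blue to 1 in red. The strongest cell is Grem1 with Id1 on the right, at −0.87, and the same pair is at 0.57 on the left.

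Over the 31 mice, with each group's mean removed, the genes whose log2(CPM + 1) deviated most like each member were found among 13784 tested genes averaging 1 CPM or more. Grem1 had the closest partners, Fam129a (r = 0.92) and Pappa (r = 0.91), followed by Chrdl1 with Gpm6a (0.89) and Dr1 (0.86) and by Bmp7 with Slc25a34 (0.87) and 2210404O07Rik (0.86). Id2 was most like Vil1 (0.82), a brush border gene, and Fmo1 (0.81), and Id1 most like Fam213b (0.82) and Tut1 (0.78). Id3 was most like Id1 (0.70) and Xndr (0.69). The remaining first partners were Slirp for Bmp4 (0.81), Gsn for Bmp2 (0.77), Kdm4b for Bmper (0.76) and Adap1 for Bmp6 (0.75), and the second were Eif2a (0.75), Sidt1 (0.75), Scrib (0.75) and Scpep1 (0.74). These are the highest of many values, computed over the same 31 libraries, and they carry no test.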

How the data were processed

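Kidney RNA of 31 mice was taken with an RNeasy kit, made into TruSeq stranded mRNA libraries and sequenced as paired reads of 75 bases. The authors trimmed reads with Trim Galore, mapped them with STAR on GRCm38 (mm10) and counted uniquely mapped reads per gene with HTSeq 0.6.1. FastQC 0.11.2, SAMtools 1.1 and Picard 1.119 are also in the submitters' processing notes. The annotation and strand setting are not given in the sources used here. The deposited values are raw counts for 23509 genes, with no normalization. Summary rows without a gene were left out, and genes held 68.9% to 73.1% of the reads listed.

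Groups and mouse numbers came from the sample labels. Genes passing filterByExpr (15185) were scaled by TMM and tested in edgeR 4.0.16 (R 4.3.3), by the quasi-likelihood test with 1 coefficient per group and Benjamini-Hochberg adjustment. Alternatives were RLE size factors, no filter, DESeq2 1.42.0, fewer groups, library series (inferred from the restart of library numbers), a replicate block, a size threshold of 0.5, a pseudocount of 0.1 and leaving out each mouse, the Pcy/CD1 mice other than RGLS4326-treated mouse 9 being added after seeing the data. Standard errors are the log2 fold change over the root of F. Counting error at 14892524 to 27459962 counts per library limits genes near 1 CPM most. Gene positions and exon lengths are from GENCODE vM21, and promoters and the miRNA from RefSeq (GRCm38.p6). No promoter window was held for Bmp2, Bmp7, Chrdl1 and Id1. Steps outside R used Python 3.11.15, with matplotlib 3.10.9, pandas 2.3.3, scipy 1.17.1 and numpy 2.4.6. The fit was tested on simulated data.

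The 10 genes and all lists were chosen with earlier results of these data known. Of the pathway list, 1 gene is not reported here and is in no count. Named were all 10 genes, the 3 pathway genes of each role with the smallest p in PBS against wild type, those that passed in RGLS4326 against PBS, and the 2 genes most like each member. Atoh8 and Msx1 were added to show genes of the target and partner list that rose. Same-numbered mice are different animals and share only a number. The closest pair of libraries, wild-type mice 3 and 4, had a chi-square of 2.84 per gene (17.1 for the next wild-type pair), above sampling noise, and both were kept. Whether they come from different animals was not tested further, so the count of 5 wild-type mice rests on the labels. Without mouse 3 or 4, PBS against wild type gave 10942 and 10900 calls over all genes.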

Additional observations from a re-analysis of the deposited data

Results flagged for a closer look

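Id2 in wild-type mouse 5, at 224 CPM, lay far enough below the other 4 wild-type mice (308 to 338 CPM) to pass Dixon's test at the 95% level. The test was run on the 10 genes in the wild-type group and not in the larger groups. Of these genes, 1 was singled out, where chance singles out about 1 in 20. The same mouse also had the lowest Bmp4, Bmp7, Id1 and Id3 of its group, and these were not singled out. Without it, Id2 was lower with PBS by −0.85 on the log2 scale in place of −0.76. A cause was not tested.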

How the results depend on the processing

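Of the 10 genes, 8 passed between PBS and wild type and 2 in the third library series alone, with 8 to 9 when single mice were left out. Between RGLS4326 and wild type, 8 passed (8 to 8 with single mice left out), but 0 in the second and 1 in the third series alone. Between RGLS4326 and PBS, 1 passed, and 0 with no filter, with the 2 groups only, in series 1, 2 or 3 alone or with the replicate block (Chrdl1 0.69, adjusted p = 0.107), with 0 to 1 when single mice were left out (the Chrdl1 call held in 20 of 31 such fits). RLE factors, DESeq2 and the series as a covariate kept it. The cause was not tested. A single series has fewer mice, and the second series holds RGLS4326-treated mouse 9. Over all genes, RGLS4326 against wild type gave 7195 calls in the first series (4 and 2 mice) and 392 in the second (5 and 2 mice).

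Over all genes, PBS against wild type gave 11281 calls, 6918 in series 2, 5891 in series 3, 6442 with the size threshold and 10895 to 11392 with single mice left out. RGLS4326 against PBS gave 2402 calls, 1480 with 2 groups only, 0 by edgeR in each of series 1, 2 and 3 (280, 2981 and 3045 at an unadjusted p under 0.05), 303 with the replicate block, 327 with the size threshold, 3203 by DESeq2 and 618 to 3999 with single mice left out. RGLS4326 against wild type gave 9861 calls, 392 in series 2, 2801 in series 3, 4789 with the size threshold and 9219 to 10234 with single mice left out. The replicate numbers did not pair the mice (mean correlation of 12 PBS and RGLS4326 pairs −0.085, from −0.47 to 0.51).

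Log2 fold changes that turned direction were, in series 3 for PBS against wild type, Bmp4 0.087, Id1 0.028 and Id3 0.44, and for RGLS4326 against wild type, Bmp4 0.11, Bmp7 0.0044, Id1 0.18 and Id3 0.70. For RGLS4326 against PBS they were Bmp4 −0.048, Id1 −0.049, Id2 −0.18, Tll1 −0.23, Rgma 0.013 and Smad6 0.031 in series 1, Bmp6 −0.0047 and Bmp7 −0.026 in series 2, Bmp2 0.093, Id3 0.26 and Bmp5 −0.20 in series 3, and Id1 −0.0096 and Bmp5 −0.080 with the replicate block. With single mice left out, Id1 ran from −0.022 to 0.12, Id3 from −0.065 to 0.025 and Bmp5 from −0.23 to 0.11 in that comparison. None of these values passed the test. The count of 5 correlated pairs was also 5 with a pseudocount of 0.1.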
